A study of Mus musculus with 6 samples.

Results

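Base excision repair removes single damaged bases from DNA, and single-strand break repair rejoins the nicks that arise on the way or from direct damage. The 10 genes described here, Ogg1, Neil1, Neil2, Nthl1, Apex1, Polb, Lig3, Xrcc1, Parp1 and Parp2, were taken by symbol from the deposited table, which holds 54429 genes once entries with the same symbol are summed. All 10 were in the table and all 10 were among the 16254 genes that passed a filter on low values (at least 0.5 FPKM in at least 2 of 6 libraries). The animals were female C57BL mice, 9 weeks old, and each had been injected in its primary visual cortex (V1), the tissue sequenced, with adeno-associated virus (AAV), a gene delivery vector. The groups of 2 libraries each were shCSB/shNDN, with hairpins against CSB and against necdin, shCSB, with the hairpin against CSB only, and shControl, with a control hairpin. Every group, controls included, therefore carried an injected virus and a hairpin. The AAV serotype, the promoter of the hairpins and the share of cells that took up virus are not given in the sources used here.

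In this pathway a DNA glycosylase first cuts out the damaged base, APE1 (encoded by Apex1) nicks the backbone at the empty site, DNA polymerase beta fills the gap, and DNA ligase III seals it. XRCC1 is a scaffold that holds the polymerase and the ligase, and the enzymes PARP1 and PARP2 sense the nick and mark it with poly(ADP-ribose). Neurons do not divide and use much oxygen, so they depend on this pathway for oxidative damage in both the nucleus and mitochondria. CSB, the product of Ercc6, is a transcription-coupled repair protein that is lost in Cockayne syndrome, and in biochemical work with human proteins it binds or stimulates NEIL1, APE1 and PARP1. Ndn, imprinted and expressed in neurons, encodes necdin, which the series title names as hyperactive in Cockayne syndrome.

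The values are FPKM, which are scaled for the deposited gene length, so a comparison between genes rests on that length. For Nthl1 it was 1080 bases, against 2718 exonic bases over all its transcripts in the annotation GENCODE M21. Its place among the members is thus less certain. The reads behind the values came to 15731788 to 17365285 per library. Ercc6, the gene that the CSB hairpin targets, had 1.61 and 1.81 FPKM in the libraries labelled shCSB/shNDN and 1.29 and 1.61 FPKM in those labelled shCSB, against 1.22 to 1.46 FPKM in shControl, so neither group lay below the controls. Ndn had 16.8 and 41.0 FPKM in the libraries labelled shCSB/shNDN and 38.1 and 47.9 FPKM in those labelled shCSB, against 49.8 and 56.1 FPKM in shControl. Every direction given below for the libraries labelled shCSB or shCSB/shNDN rests on labels that Ercc6 does not bear out, and replicate 2 of shCSB/shNDN, with 41.0 FPKM of Ndn, lay within the range of the shCSB libraries for the necdin gene too. Replicate 2 of shCSB/shNDN also stands apart from the rest: mitochondrially encoded genes took 1.41% of its reads, against 4.95% to 7.65% in the other 5 libraries. In that library 435 genes had exactly 1 read, against 1597 to 1839 genes in the other 5. Each shCSB/shNDN library correlated less across genes with its own replicate (Pearson's r = 0.939) than with any shCSB or shControl library (0.944 to 0.957). Tests were done with limma on log2(FPKM + 1) over all 6 libraries, and a change on that scale understates the change of genes with low FPKM.

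No member passed the threshold (an adjusted p under 0.05) in any comparison. Polb, the polymerase that fills the gap, lay lowest in shCSB/shNDN, between the other groups in shCSB and highest in shControl, with no overlap between groups. Lig3, the ligase, lay in the opposite direction in shCSB/shNDN. The glycosylase gene Neil1 was at nearly the same mean in all 3 groups. Between shCSB/shNDN and shControl, 0 of the 10 members were called, beside 1 of 16254 genes tested (0.00615%), and 1 member, Polb, had an unadjusted p under 0.05, beside 13.4% of the genes tested. With shCSB as the comparison for shCSB/shNDN, these were 0 members beside 0 genes (0%) and 1 member, again Polb, beside 8.43%. In shCSB against shControl, 0 members and 0 genes (0%) were called, and 0 members had an unadjusted p under 0.05, beside 1.94% of the genes tested. For any difference among the 3 groups, 0 members were called, beside 0.00615% of genes. limma-voom, a fit to the recovered reads, also called 0 members in each comparison, with Polb as the 1 member at an unadjusted p under 0.05 in both comparisons of shCSB/shNDN. The gene called in shCSB/shNDN against shControl, named here after its values were seen, was the microRNA locus Mir6929. It was listed at 0 in both shCSB/shNDN libraries and at 0.911 and 0.839 FPKM in shCSB, against 6.42 and 6.998 FPKM in shControl. The number of reads behind these values is not given here. Whether the values of 0 reflect a loss of this RNA or too few reads was not tested.

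**Figure D1:**
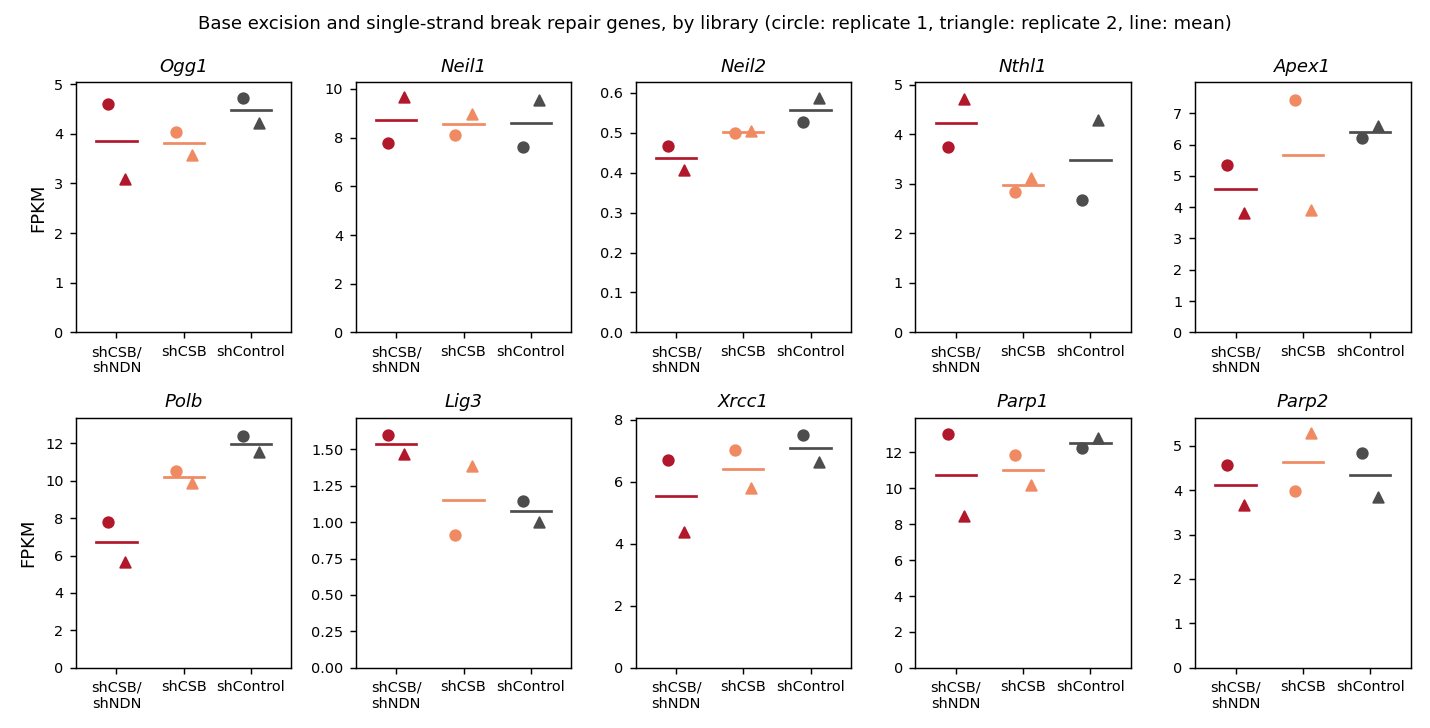
FPKM of the 10 genes in each library, with the groups shCSB/shNDN, shCSB and shControl along each x axis, replicate 1 as a circle, replicate 2 as a triangle and the mean of 2 as a line; each y axis starts at 0. Polb and Neil2 step down between separate groups towards shCSB/shNDN, Lig3 is highest in both shCSB/shNDN libraries, and the triangle of shCSB/shNDN is the lowest point of 7 of the 10 panels.

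The levels of the 10 genes spanned more than one order of magnitude and kept much the same order in each group. In shControl, Parp1 had the highest mean FPKM at 12.5 ± 0.383 (SD, n = 2), followed by Polb at 11.96 ± 0.612 and Neil1 at 8.59 ± 1.37. Xrcc1, at 7.07 ± 0.631, and Apex1, at 6.41 ± 0.265, came next. Ogg1 at 4.47 ± 0.347, Parp2 at 4.34 ± 0.708 and Nthl1 at 3.48 ± 1.14 followed, and each overlapped the next in its libraries. Lig3 at 1.07 ± 0.102 and Neil2 at 0.557 ± 0.0432 were the lowest, 22.5-fold apart from the top of the list in the case of Neil2. Among the genes that passed the filter, these means placed Parp1 at the 74.8th percentile, Lig3 at the 21.6th and Neil2 at the 10.04th. Parp1 and Polb overlapped in shControl and in shCSB, whereas in shCSB/shNDN Neil1 ranked above Polb without overlap (7.80 and 9.68 FPKM for Neil1, and 7.78 and 5.67 FPKM for Polb).

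Of the 4 glycosylase genes, Neil2 was the one whose groups did not overlap in any comparison, and its values rest on few reads. Ogg1, which removes the oxidised base 8-oxoguanine, had 4.61 and 3.10 FPKM in shCSB/shNDN and 4.05 and 3.57 FPKM in shCSB, against 4.72 and 4.23 FPKM in shControl. Both shCSB libraries lay below both controls, while the shCSB/shNDN libraries overlapped both other groups. Set against shControl, Ogg1 had a log2 change of -0.19 ± 0.20 (SE) in shCSB/shNDN (limma adjusted p = 0.712) and of -0.19 ± 0.20 in shCSB (limma adjusted p = 1). Without shCSB/shNDN replicate 2, the value of shCSB/shNDN was 0.037. Ogg1 shares 232 of its exonic bases, 10.6%, with Camk1 on the other strand. The library kit keeps the strand, but whether the counting used it is not given in the sources used here.

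Neil1, which removes oxidised pyrimidines and ring-opened purines, had 7.80 and 9.68 FPKM in shCSB/shNDN and 8.12 and 8.98 FPKM in shCSB, against 7.61 and 9.56 FPKM in shControl. The 3 groups overlapped throughout. Neil1 differed from shControl by 0.024 ± 0.19 (SE, log2) in shCSB/shNDN, where the 95% interval ran from -0.43 to 0.47 (limma adjusted p = 0.969). In shCSB it differed by 0.00077 ± 0.19, and the interval ran from -0.45 to 0.45 (limma adjusted p = 1). These intervals leave out a 2-fold change in either direction. They do not show that Neil1 was equal between groups.

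Neil2, a glycosylase known for acting on bubble structures such as those of transcribed DNA, had 0.467 and 0.408 FPKM in shCSB/shNDN and 0.499 and 0.504 FPKM in shCSB, against 0.526 and 0.587 FPKM in shControl. The groups did not overlap, but the values rest on 35 to 45 reads per library and the counting intervals of all 6 libraries overlap. Neil2 in shCSB/shNDN differed from shControl by -0.12 ± 0.19 (SE, log2; limma adjusted p = 0.824). Its mean FPKM in shCSB/shNDN was 78.5% of shControl. Fitted to reads, which were scaled by read totals only, it stood at 85.2% of shControl, and the 95% interval ran from 43.7% to 166%. A difference of the size seen was thus not detectable at this depth.

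Nthl1, which removes thymine glycol and other oxidised pyrimidines, had 3.74 and 4.71 FPKM in shCSB/shNDN and 2.83 and 3.12 FPKM in shCSB, against 2.67 and 4.28 FPKM in shControl. Both shCSB/shNDN libraries lay above both shCSB libraries, and the control libraries spanned nearly the whole range. On the log2 scale, shCSB/shNDN differed from shCSB by 0.39 ± 0.22 (SE, limma adjusted p = 0.682) and from shControl by 0.24 ± 0.22 (limma adjusted p = 0.669). The difference from shControl was -0.02 without shControl replicate 1. The values rest on 47 to 87 reads and on a length of 1080 bases in the table, against 2718 exonic bases over all transcripts of Nthl1 in GENCODE M21.

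Apex1, coding for the endonuclease that handles nearly all abasic sites, had 5.36 and 3.82 FPKM in shCSB/shNDN and 7.43 and 3.91 FPKM in shCSB, against 6.22 and 6.59 FPKM in shControl. Both shCSB/shNDN libraries lay below both controls, and the shCSB libraries held the highest value and one of the lowest. That gap within shCSB was larger than counting error, since replicate 1 had a counting interval of 6.36 to 8.62 FPKM and replicate 2 one of 3.18 to 4.76 FPKM. It was also larger than the gap of 96.4% of genes in that group. Mean FPKM of Apex1 in shCSB/shNDN was 71.6% of shControl, a log2 change of -0.42 ± 0.28 (SE, limma adjusted p = 0.559). In shCSB the log2 change from shControl was -0.20 ± 0.28 (limma adjusted p = 1), which became 0.19 without shCSB replicate 2 and -0.59 without shCSB replicate 1. Apex1 shares 877 exonic bases, 61.7% of its own, with Pip4p1 on the other strand. Pip4p1 had 17.7 and 20.0 FPKM in shCSB/shNDN and 17.7 and 15.0 FPKM in shCSB, against 18.5 and 20.9 FPKM in shControl, all of them above the values of Apex1, and the part of this overlap in the values of Apex1 was not tested.

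Polb, coding for DNA polymerase beta, which fills the single-base gap and trims its sugar-phosphate end, had 7.78 and 5.67 FPKM in shCSB/shNDN and 10.5 and 9.90 FPKM in shCSB, against 12.4 and 11.5 FPKM in shControl. The groups were separate, and each shCSB/shNDN library lay below every other library. The reads behind these values numbered 523 and 382 in shCSB/shNDN and 680 and 694 in shCSB, against 795 and 678 in shControl. The counting intervals of the shCSB/shNDN libraries, 7.13 to 8.47 FPKM for replicate 1 and 5.11 to 6.26 FPKM for replicate 2, stayed below those of all other libraries, the lowest of which started at 9.17 FPKM. Mean FPKM in shCSB/shNDN was 65.8% of that in shCSB and 56.2% of that in shControl, and in shCSB it was 85.4% of that in shControl.

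Between shCSB/shNDN and shControl, Polb had a log2 change of -0.76 ± 0.18 (SE), and the 95% interval ran from -1.21 to -0.31 (limma adjusted p = 0.250). By its p, Polb ranked 344 among 16254 genes there. Between shCSB/shNDN and shCSB it was -0.55 ± 0.18, and the interval ran from -0.997 to -0.11 (limma adjusted p = 0.545). Between shCSB and shControl it was -0.21 ± 0.18, and the interval ran from -0.65 to 0.24 (limma adjusted p = 1). These 3 comparisons share libraries and are not independent. The change was negative in each of the 14 alternative fits of each comparison. Where groups are separate, leaving out 1 library cannot change the sign, and several other fits keep the same group means. The shared sign is therefore no support for a difference. In shCSB/shNDN against shControl the change of Polb was between -0.96 and -0.56 over these fits. With replicate 2 as the only library of shCSB/shNDN, that is without shCSB/shNDN replicate 1, it was -0.96 and passed the threshold (adjusted p = 0.0204), in a fit that called 11.1% of all genes tested. Without shCSB/shNDN replicate 2 it was -0.56 and did not pass. The order of 3 separate groups, falling from shControl through shCSB to shCSB/shNDN, was found for 2 members, Polb and Neil2, and for 573 of the 16254 genes tested (3.53%). The rising order was found for 0 members and for 3.62% of the genes tested.

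**Figure D2:**
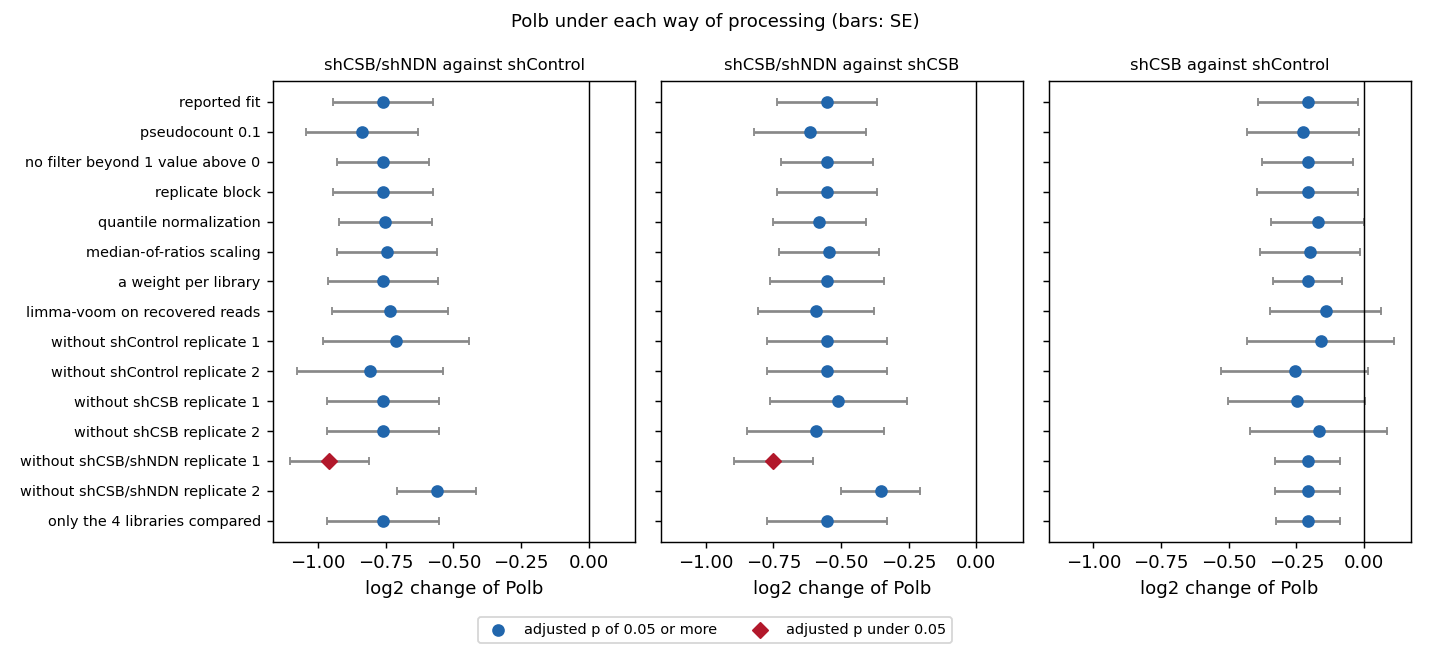
Log2 change of Polb in the reported fit and in each alternative, with 1 panel per comparison, bars for the SE, and a diamond where the adjusted p was under 0.05. All points lie left of 0, and the 2 diamonds are the fits without shCSB/shNDN replicate 1, at -0.96 and -0.75.

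Markers of several cell types also differed between these libraries. The 8 microglia markers summed to 1983 and 564 FPKM in shCSB/shNDN and to 251 and 297 FPKM in shCSB, against 189 and 195 FPKM in shControl, with 7 of the 8 above both controls in shCSB/shNDN (20.7% of all genes) and none listed at 0. The 8 markers of activated microglia and macrophages summed to 1721 and 333 FPKM in shCSB/shNDN and to 40.9 and 39.0 FPKM in shCSB, against 21.5 and 18.4 FPKM in shControl. The 7 markers of excitatory neurons summed to 795 and 549 FPKM in shCSB/shNDN and to 807 and 823 FPKM in shCSB, against 888 and 1000.4 FPKM in shControl, with 3 of the 7 below both controls in shCSB/shNDN (23.7% of all genes) and none listed at 0. The 6 markers of inhibitory neurons summed to 421 and 1138 FPKM in shCSB/shNDN and to 806 and 603 FPKM in shCSB, against 849 and 691 FPKM in shControl. Sst, at 280 and 798 FPKM in shCSB/shNDN, made up most of these sums, and Pvalb had 69.0 and 246 FPKM there. Astrocyte markers (6 genes) summed to 584 and 359 FPKM in shCSB/shNDN and to 256 and 318 FPKM in shCSB, against 239 and 237 FPKM in shControl. Only 2 of the 6 lay above both controls in shCSB/shNDN (20.7% of all genes). Most of the gap came from Gfap, with 372 and 152 FPKM in shCSB/shNDN and 76.3 and 56.3 FPKM in shCSB. In shControl Gfap had 52.2 and 48.4 FPKM. Markers of meninges and fibroblasts (6 genes) summed to 11.3 and 10.6 FPKM in shCSB/shNDN and to 12.9 and 11.4 FPKM in shCSB, against 5.74 and 4.15 FPKM in shControl, with 5 of 6 above both controls in shCSB/shNDN (20.7% of all genes) and 6 of 6 in shCSB (18.3% of all genes). Lymphocyte markers (8 genes) summed to 86.8 and 6.70 FPKM in shCSB/shNDN and to 174 and 40.1 FPKM in shCSB, against 1.97 and 1.40 FPKM in shControl, where 4 of the 8 were listed at 0 in a library. Igkc, at 79.3 and 3.84 FPKM in shCSB/shNDN and 168 and 36.9 FPKM in shCSB, made up most of these sums. Oligodendrocyte markers (6 genes) summed to 1129.5 and 863 FPKM in shCSB/shNDN and to 837 and 1094 FPKM in shCSB, against 1144 and 1169.6 FPKM in shControl. Markers of their precursors (4 genes) summed to 144 and 198 FPKM in shCSB/shNDN and 79.7 and 122 FPKM in shCSB. In shControl these summed to 130 and 112 FPKM. Olig1, at 124 and 186 FPKM in shCSB/shNDN, made up most of the precursor sums. Endothelial markers (5 genes) summed to 75.8 and 150 FPKM in shCSB/shNDN and 84.7 and 81.6 FPKM in shCSB. In shControl these summed to 79.3 and 83.5 FPKM. Cldn5, at 55.6 and 133 FPKM in shCSB/shNDN, made up most of the endothelial sums. Markers of proliferating cells (8 genes) summed to 39.9 and 19.2 FPKM in shCSB/shNDN and 25.0 and 23.4 FPKM in shCSB. In shControl these summed to 25.6 and 26.0 FPKM. Of the 8, 5 lay above both controls in shCSB/shNDN (20.7% of all genes), and Pcna, at 28.2 and 15.3 FPKM there, made up most of the sums. The part of the differences in all these lists in the values of Polb, Lig3 and the other members was not tested. In bulk tissue, fewer cells of a type and less RNA per cell cannot be told apart.

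Lig3, whose protein seals the nick and is the ligase of mitochondria, had 1.60 and 1.47 FPKM in shCSB/shNDN and 0.914 and 1.39 FPKM in shCSB, against 1.15 and 1.00 FPKM in shControl. Both shCSB/shNDN libraries lay above all 4 others, and the shCSB libraries lay on either side of the controls. Lig3 in shCSB/shNDN differed from shCSB by 0.25 ± 0.19 (SE, log2; limma adjusted p = 0.759) and from shControl by 0.29 ± 0.19 (limma adjusted p = 0.552). Mean FPKM of Lig3 in shCSB/shNDN was 143% of shControl. Fitted to reads, which were scaled by read totals only, it stood at 154% of shControl (limma-voom adjusted p = 0.404). The 95% interval ran from 94.7% to 251%. In that fit the median log2 change over all genes was 0.092, against -0.0075 in the reported fit. Lig3 shares 1826 exonic bases, 25.1% of its own, with Rffl on the other strand. Rffl had 2.17 and 1.64 FPKM in shCSB/shNDN and 1.44 and 1.47 FPKM in shCSB, against 1.11 and 1.04 FPKM in shControl, so it was higher in the same libraries. Rffl in shCSB/shNDN differed from shControl by 0.48 ± 0.18 (SE, log2; limma adjusted p = 0.341). The part of the shared bases in the values of Lig3 was not tested.

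Xrcc1, coding for the scaffold that binds polymerase beta and DNA ligase III, had 6.69 and 4.37 FPKM in shCSB/shNDN and 7.04 and 5.78 FPKM in shCSB, against 7.52 and 6.63 FPKM in shControl. The groups overlapped, with replicate 2 of shCSB/shNDN below every other library. Set against shControl, Xrcc1 had a log2 change of -0.33 ± 0.22 (SE) in shCSB/shNDN (limma adjusted p = 0.556) and of -0.13 ± 0.22 in shCSB (limma adjusted p = 1). Without shCSB/shNDN replicate 2, the value of shCSB/shNDN was -0.07.

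Parp1, coding for the main enzyme that senses breaks and makes poly(ADP-ribose), had 13.0 and 8.45 FPKM in shCSB/shNDN and 11.9 and 10.2 FPKM in shCSB, against 12.3 and 12.8 FPKM in shControl. Both shCSB libraries lay below both controls, whereas the shCSB/shNDN libraries were the highest and the lowest of all 6. Parp1 in shCSB/shNDN differed from shControl by -0.23 ± 0.22 (SE, log2; limma adjusted p = 0.682), a value that was 0.05 without shCSB/shNDN replicate 2. It was -0.52 without shCSB/shNDN replicate 1. In shCSB it differed from shControl by -0.17 ± 0.22 (limma adjusted p = 1).

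Parp2, coding for a second enzyme of the same kind, had 4.55 and 3.67 FPKM in shCSB/shNDN and 3.99 and 5.28 FPKM in shCSB, against 4.84 and 3.84 FPKM in shControl. The groups overlapped in every comparison. Parp2 in shCSB/shNDN differed from shControl by -0.062 ± 0.20 (SE, log2), and the 95% interval ran from -0.55 to 0.42 (limma adjusted p = 0.918). In shCSB it differed by 0.074 ± 0.20, and the interval ran from -0.41 to 0.56 (limma adjusted p = 1).

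**Figure D3:**
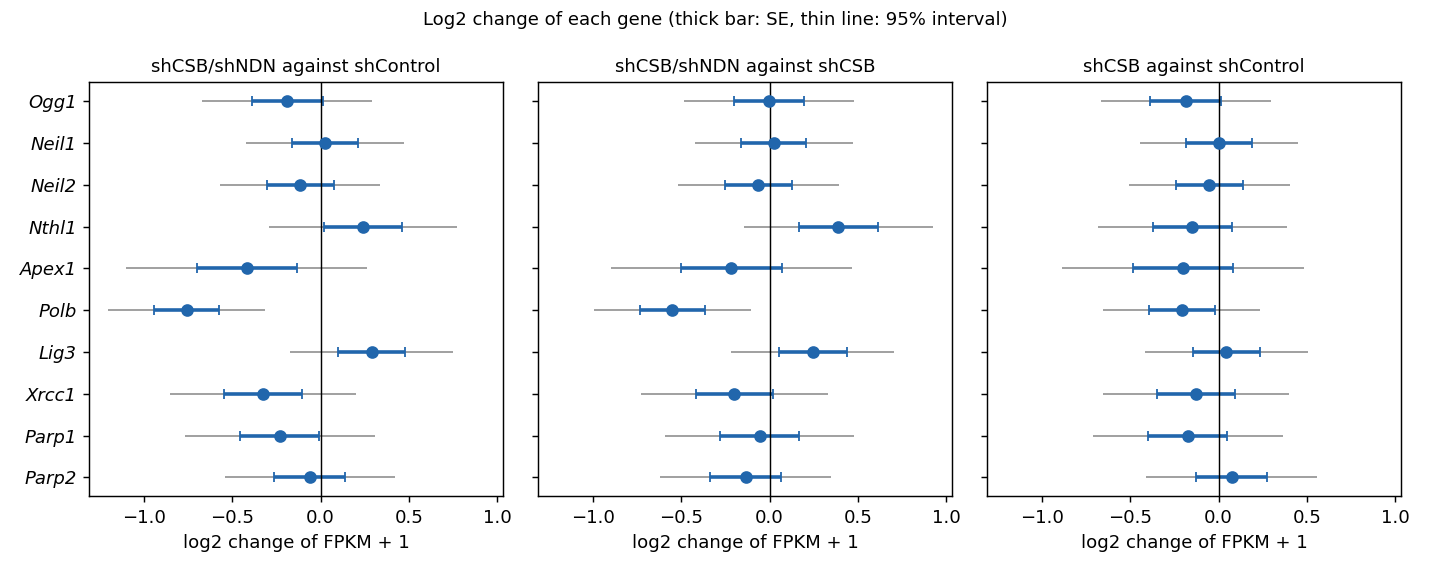
Log2 change of FPKM + 1 for the 10 genes, with 1 panel per comparison, thick bars for the SE and thin lines for the 95% interval. In shCSB/shNDN against shControl, Polb at -0.76 has the largest change of the 10 and the only interval that leaves out 0; all 10 intervals of shCSB against shControl include 0.

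The median log2 change of the members lay below 0 in each comparison, by less than the spread of that median between replicates (SD 0.133) for shCSB/shNDN against shCSB and by slightly more in the comparisons with shControl. Between shCSB/shNDN and shControl, 7 of 10 log2 changes were below 0, beside 51.0% of all genes tested, and their median was -0.15, beside -0.0075 over all genes. In 3 members, Apex1, Polb and Neil2, both libraries lay below both controls, beside 23.7% of genes, and in 1, Lig3, both lay above, beside 20.7%. Set against shCSB, the median in shCSB/shNDN was -0.060, beside -0.0083 over all genes, with 7 of 10 below 0 (51.1% of genes). Polb and Neil2 were separate on the lower side (18.4% of genes) and Nthl1 and Lig3 on the higher side (16.5% of genes). In shCSB against shControl, the median was -0.14, beside -0.0035 over all genes, with 7 of 10 below 0 (50.8% of genes). The 4 members Ogg1, Neil2, Polb and Parp1 were separate on the lower side (18.1% of genes) and 0 on the higher side (18.3% of genes). Replicate 2 of shCSB/shNDN held the lowest value of 7 of the 10 members, Ogg1, Neil2, Apex1, Polb, Xrcc1, Parp1 and Parp2, beside 30.8% of all genes tested. Without that library, the median of shCSB/shNDN against shControl was -0.015 with 5 of 10 members below 0, and without shCSB/shNDN replicate 1 it was -0.30.

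The 95% intervals bound what these data leave possible. On the scale of log2(FPKM + 1), a 2-fold limit is a 2-fold change of FPKM + 1. A 2-fold change of FPKM itself is smaller on that scale, most of all for low genes such as Neil2, and is not bounded by it. The intervals of all 10 members lay within a 2-fold change of FPKM + 1 in shCSB against shControl and in shCSB/shNDN against shCSB. Those of 8 did in shCSB/shNDN against shControl, where Apex1 and Polb reached beyond a 2-fold decrease of FPKM + 1. On the scale of reads, 8, 5 and 5 intervals lay within a 2-fold change in these comparisons, so larger changes of Apex1, Lig3, Neil2, Nthl1 and Polb between shCSB/shNDN and the other groups stay within the error.

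Ratios between members within a library do not depend on how libraries are scaled, and the ratios given here were chosen after the values were seen. Polb exceeded Lig3 4.86-fold and 3.86-fold in shCSB/shNDN and 11.5-fold and 7.13-fold in shCSB, against 10.8-fold and 11.5-fold in shControl. The shCSB/shNDN values were thus below all others. Xrcc1 exceeded Lig3, the partner that it binds, 4.18-fold and 2.98-fold in shCSB/shNDN and 7.70-fold and 4.16-fold in shCSB, against 6.56-fold and 6.61-fold in shControl, so that shCSB/shNDN and shCSB overlapped. The ratio of Xrcc1 to Polb was 0.860 and 0.771 in shCSB/shNDN and 0.668 and 0.584 in shCSB, against 0.607 and 0.575 in shControl. Parp1 exceeded Parp2 2.86-fold and 2.30-fold in shCSB/shNDN and 2.97-fold and 1.92-fold in shCSB, against 2.53-fold and 3.33-fold in shControl, with overlap between all groups. No test of these ratios was made.

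**Figure D4:**
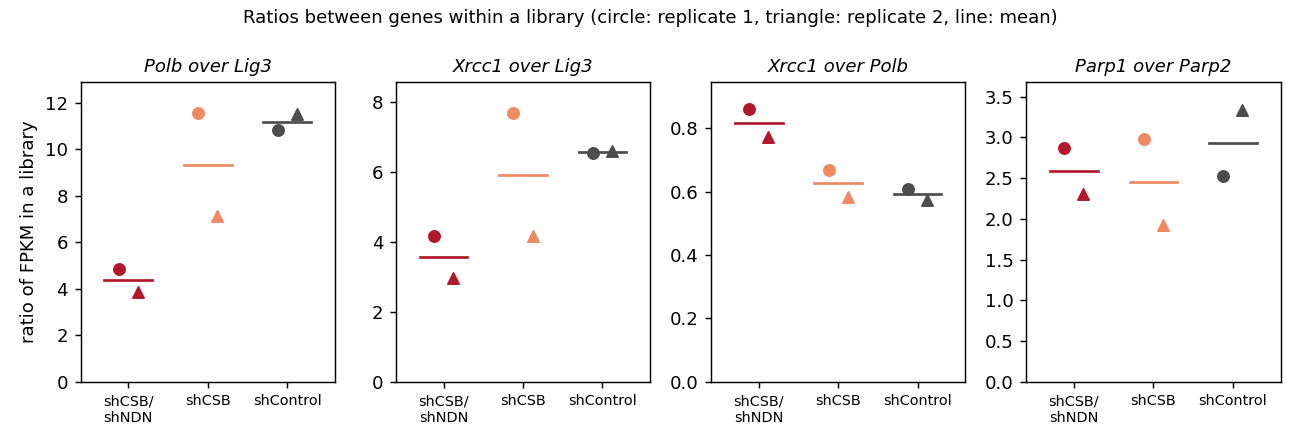
Ratio of FPKM between pairs of members within each library, with the groups shCSB/shNDN, shCSB and shControl along each x axis, replicate 1 as a circle, replicate 2 as a triangle and the mean as a line. The ratio of Polb to Lig3 is 3.86 and 4.86 in shCSB/shNDN, below the 4 other libraries, and that of Parp1 to Parp2 overlaps between all groups.

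Several members start close to a gene on the other strand, and the windows of Nthl1, Apex1 and Lig3 are shown because their libraries in shCSB/shNDN lay apart from those of another group while the neighbour that starts inside the window can be read beside them. The sequences are from RefSeq on GRCm38.p6, run 5′ to 3′ on the strand of the named gene from 250 bases before to 50 bases after its start, and were found for 8 of the 10 members. Polb and Neil2 are without an entry. The windows are chr17:24632432-24632731 for Nthl1, chr14:50924699-50924998 for Apex1 and chr11:82780859-82781158 for Lig3, all on the plus strand. Capitals mark matches, on both strands, to the GC box (GGGCGG), the E-box (CACGTG), the ETS core (CCGGAAG) and the consensus site of the factor NRF1, which do not overlap each other in these windows.
Nthl1: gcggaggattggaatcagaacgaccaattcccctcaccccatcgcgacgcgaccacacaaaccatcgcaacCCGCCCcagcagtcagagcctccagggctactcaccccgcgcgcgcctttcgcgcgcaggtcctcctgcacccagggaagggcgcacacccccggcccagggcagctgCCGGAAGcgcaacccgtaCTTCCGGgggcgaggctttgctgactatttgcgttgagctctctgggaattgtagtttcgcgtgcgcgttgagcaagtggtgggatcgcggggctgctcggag
Apex1: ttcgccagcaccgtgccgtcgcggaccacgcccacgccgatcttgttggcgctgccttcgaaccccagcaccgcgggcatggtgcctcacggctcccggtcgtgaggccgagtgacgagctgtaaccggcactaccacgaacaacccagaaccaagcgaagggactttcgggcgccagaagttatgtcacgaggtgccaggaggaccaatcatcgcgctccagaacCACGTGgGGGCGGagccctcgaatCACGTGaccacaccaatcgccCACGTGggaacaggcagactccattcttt
Lig3: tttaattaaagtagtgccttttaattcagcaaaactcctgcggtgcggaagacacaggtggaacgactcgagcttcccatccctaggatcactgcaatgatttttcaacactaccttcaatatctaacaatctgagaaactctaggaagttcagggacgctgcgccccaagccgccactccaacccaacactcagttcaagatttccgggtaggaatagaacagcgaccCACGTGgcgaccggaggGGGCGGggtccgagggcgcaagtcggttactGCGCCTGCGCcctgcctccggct
The E-box was in the windows of 4 of 8 members (Apex1 with 3 matches, and Lig3, Parp1 and Parp2 with 1 each) and in 7.15% of 32851 promoters of the same length. The GC box was in 6 of 8, beside 35.7% of promoters, and the ETS core in 2 of 8, Ogg1 and Nthl1, beside 8.86%. The NRF1 site was in 1 of 8, Lig3, beside 4.60%. The cyclic AMP response element (TGACGTCA) was in 0 of 8, beside 1.79%. The median GC content of the 8 windows was 61.0%, against 52.7% over all promoters, and matches to GC-rich letters depend on it. The window of Xrcc1, chr7:24546449-24546748 with 49.3% GC, lies wholly after the gene start in GENCODE M21, at chr7:24546289. It is included in these counts and in the median.

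The genes that start on the other side of these windows gave the following values. Tsc2, coding for a subunit of the complex that restrains mTOR, starts 50 bases from Nthl1 and had 11.7 and 7.45 FPKM in shCSB/shNDN and 11.9 and 11.5 FPKM in shCSB, against 12.3 and 13.5 FPKM in shControl, a log2 change of -0.29 ± 0.22 (SE) for shCSB/shNDN against shCSB (limma adjusted p = 0.755) where that of Nthl1 was 0.39 ± 0.22. The difference between these changes was not tested. Osgep, a tRNA modification gene, starts 75 bases from Apex1 and had 5.99 and 4.92 FPKM in shCSB/shNDN and 5.21 and 4.76 FPKM in shCSB, against 5.42 and 5.66 FPKM in shControl. Its log2 change for shCSB/shNDN against shControl was -0.024 ± 0.16 (limma adjusted p = 0.964), beside -0.42 ± 0.28 for Apex1. The antisense gene Gm11423, 66 bases from the start of Lig3, had 0.927 and 2.24 FPKM in shCSB/shNDN and 1.38 and 1.40 FPKM in shCSB, against 1.11 and 0.908 FPKM in shControl.

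The 10 genes lie on 8 chromosomes of GRCm38, and all are protein coding. Parp2 (chr14:50807841-50821301, plus strand), Apex1 (chr14:50924968-50927139, plus strand) and Neil2 (chr14:63182443-63193856, minus strand) share chromosome 14. Polb is at chr8:22628126-22653435 on the minus strand, with 14 merged exons, and shares 45 exonic bases with the long noncoding RNA gene Gm26909. Lig3 is at chr11:82781108-82804274 on the plus strand, with 20 merged exons. Ogg1 is at chr6:113326972-113335068, Xrcc1 at chr7:24546289-24573440, Parp1 at chr1:180568924-180601254 and Nthl1 at chr17:24632682-24638838, all on the plus strand, and Neil1 is at chr9:57142800-57148305 on the minus strand.

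Other genes of the same pathway showed differences in both directions and none passed the threshold. Of a list of 27, all were in the table and 25 passed the filter, with Fen1 and Neil3 left out. Between shCSB/shNDN and shControl 0 of 25 were called, their median log2 change was 0.020, and both libraries lay above both controls for 4 and below them for 5 (20.7% and 23.7% of all genes tested). With shCSB/shNDN set against shCSB, 0 were called, with a median of -0.021 and 5 separate on each side (16.5% of all genes above and 18.4% below). In shCSB against shControl 0 were called, with a median of 0.0042, 6 separate above and 8 below (18.3% and 18.1% of all genes).

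Among the glycosylases of that list, Tdg, which removes thymine from G-T mismatches and oxidised methylcytosines, had 5.997 and 9.23 FPKM in shCSB/shNDN and 5.84 and 5.77 FPKM in shCSB, against 4.48 and 5.51 FPKM in shControl. These groups were separate and in rising order, and the log2 change between shCSB/shNDN and shControl was 0.50 ± 0.22 (SE, limma adjusted p = 0.386). Mutyh, which removes adenine placed opposite 8-oxoguanine, had 1.73 and 1.57 FPKM in shCSB, against 1.082 and 1.13 FPKM in shControl (log2 change 0.33 ± 0.18, limma adjusted p = 1). Smug1, a uracil glycosylase, had 2.38 and 2.64 FPKM in shCSB, against 1.82 and 1.90 FPKM in shControl (0.29 ± 0.18, limma adjusted p = 1).

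The long-patch branch of the pathway, in which a replicative polymerase and DNA ligase I take the place of polymerase beta and DNA ligase III, gave values in both directions. Lig1, coding for DNA ligase I, had 4.46 and 4.41 FPKM in shCSB/shNDN and 3.30 and 3.57 FPKM in shCSB, against 2.47 and 3.47 FPKM in shControl. It differed from shControl by 0.46 ± 0.18 in shCSB/shNDN (SE, log2; limma adjusted p = 0.351), so both ligase genes of the pathway lay above all other libraries in shCSB/shNDN. Pold2, a subunit of DNA polymerase delta, had 10.04 and 5.82 FPKM in shCSB/shNDN and 10.5 and 10.97 FPKM in shCSB, against 13.0 and 11.4 FPKM in shControl (log2 change -0.60 ± 0.25 between shCSB/shNDN and shControl, limma adjusted p = 0.371). Pold4, another subunit, had 24.4 and 19.6 FPKM in shCSB/shNDN, against 17.2 and 15.3 FPKM in shCSB (0.41 ± 0.19, limma adjusted p = 0.630). Pold1, the catalytic subunit, had 2.75 and 3.55 FPKM in shCSB, against 3.91 and 3.94 FPKM in shControl (-0.25 ± 0.17, limma adjusted p = 1).

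Of the end-processing and accessory genes, Aptx, which clears abortive ligation ends, had 4.47 and 4.19 FPKM in shCSB/shNDN and 4.68 and 5.01 FPKM in shCSB, against 5.03 and 5.53 FPKM in shControl, in falling order without overlap. The log2 change of Aptx for shCSB/shNDN against shControl was -0.24 ± 0.15 (SE, limma adjusted p = 0.536). Hmgb1, a chromatin protein that takes part in long-patch repair, had 10.4 and 13.0 FPKM in shCSB/shNDN and 15.0 and 13.5 FPKM in shCSB, against 16.0 and 15.2 FPKM in shControl (-0.39 ± 0.17, limma adjusted p = 0.385). Tdp2, which removes trapped topoisomerase II from DNA ends, had 5.26 and 5.59 FPKM in shCSB, against 4.97 and 4.32 FPKM in shControl (0.19 ± 0.16, limma adjusted p = 1). Nudt1, which clears oxidised nucleotides before they enter DNA, had 4.06 and 9.80 FPKM in shCSB/shNDN and 3.398 and 2.44 FPKM in shCSB, against 3.88 and 4.27 FPKM in shControl. The log2 change of Nudt1 for shCSB/shNDN against shCSB was 0.93 ± 0.35 (limma adjusted p = 0.578), and replicate 2 of shCSB/shNDN alone lay apart from the rest.

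**Figure D5:**
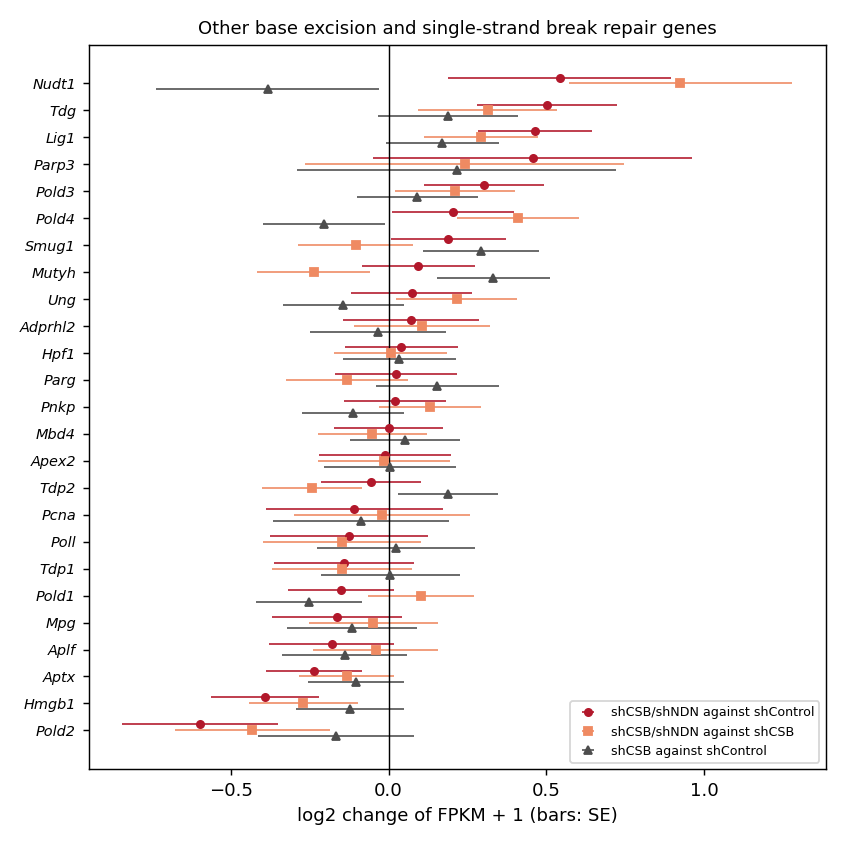
Log2 change of FPKM + 1 with its SE for 25 other genes of the pathway in shCSB/shNDN against shControl (circles), shCSB/shNDN against shCSB (squares) and shCSB against shControl (triangles), ordered by the first. Nudt1 and Tdg are at the top and Hmgb1 and Pold2 at the bottom, and none passed the threshold.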

How the data were processed

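The authors deposited FPKM values in 1 column per library, over 54532 entries. HISAT2 2.0.4, FastQC and the build GRCm39 are named, per the submitters' processing notes. Which program counted reads, with what strand setting and annotation, is not given in the sources used here. Positions equal those of GENCODE M21, on GRCm38, for 98.3% of 54409 shared identifiers, so coordinates are given as GRCm38. The gene length deposited beside the values, in bases, was used to recover reads: in each library, 100% of the products of FPKM and length were whole numbers of 1 common step (tolerance 0.01). The reads came to 15731788 to 17365285 per library. Counting intervals are exact 95% Poisson intervals and cover counting error only. By identifier, 27 symbols turned into dates were restored. Entries were summed where a symbol, of which there were 100, had several.

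Libraries were taken as separate animals, since the design text speaks of 2 mice for each genotype. Group means were estimated on log2(FPKM + 1) by limma 3.58.1 (R 4.3.3) for 16254 genes, all 6 libraries entering. The variance prior followed the mean (3.42 prior, 3 residual degrees of freedom), and p-values were adjusted by Benjamini and Hochberg's method across the 16254 genes. All p-values are two-sided. The steps were also run on simulated reads with the same spread in every group. The spread here differed between groups, so that run does not show how the steps perform on these libraries. Replicate pairs differed by more than sampling noise (chi-square over degrees of freedom 10.8 to 108).

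Alternatives were a pseudocount of 0.1, no filter, a replicate block, only the 4 libraries compared, quantile and median-of-ratios scaling, a weight per library, limma-voom on the reads, and leaving out each library. With 1 library left in a group, that library is assumed to vary like the others. Named beside the members were Ercc6, Ndn, genes that neighbour a member, and, of the other repair genes, the 4 with the smallest p per comparison and those whose groups were separate in all comparisons. Members, lists and rules were chosen with earlier results of these data known.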

Additional observations from a re-analysis of the deposited data

How the results depend on the processing

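The number of genes past the threshold in shCSB against shControl, 0 as reported, was 1 with a weight per library, 2 with only the 4 libraries compared, and 0 to 1 when each library was left out. In shCSB/shNDN against shCSB, also 0, it was 0 to 893 when each library was left out. In shCSB/shNDN against shControl, 1 as reported, it was 3 with the replicate block, 2 with a weight per library, 6 by limma-voom, 0 with no filter, 0 with only the 4 libraries compared, and 0 to 1808 when each library was left out. For any difference among the 3 groups, 1 as reported, it was 0 with a pseudocount of 0.1, 0 with no filter, 0 with the replicate block, 0 under either scaling, 0 by limma-voom, and 0 to 596 when each library was left out. Members past the threshold numbered 0 to 1 over the fits that left out a library in both comparisons of shCSB/shNDN and in the test of any difference, the 1 being Polb without shCSB/shNDN replicate 1. Other repair genes numbered 0 to 2 (Nudt1 and Pold2) in shCSB/shNDN against shCSB and 0 to 3 (Nudt1, Pold2 and Tdg) in shCSB/shNDN against shControl, where Parp3 was the 1 called without shCSB/shNDN replicate 2. The median of the members was -0.24 to 0.024 in shCSB/shNDN against shCSB and -0.30 to -0.015 in shCSB/shNDN against shControl over these fits. Of 420 alternative values for single members, 29 changed sign, none of them past the threshold before or after, and 2 newly passed, both of Polb without shCSB/shNDN replicate 1. Sign changes were found in these members: for shCSB/shNDN against shControl, log2 changes ranged with each library left out as Neil1 -0.12 to 0.17, Nthl1 -0.021 to 0.50, Parp2 -0.20 to 0.074, Ogg1 -0.42 to 0.037, Parp1 -0.52 to 0.055, and were Parp2 0.034 by limma-voom. For shCSB/shNDN against shCSB, log2 changes ranged with each library left out as Ogg1 -0.23 to 0.22, Neil1 -0.12 to 0.16, Apex1 -0.61 to 0.17, Parp1 -0.34 to 0.23, Parp2 -0.30 to 0.030, Xrcc1 -0.46 to 0.060, and were Neil1 -0.015 with quantile scaling, Ogg1 0.0042 with median-of-ratios scaling, Ogg1 0.022 by limma-voom. For shCSB against shControl, log2 changes ranged with each library left out as Neil1 -0.15 to 0.15, Nthl1 -0.41 to 0.11, Lig3 -0.12 to 0.20, Parp2 -0.092 to 0.24, Apex1 -0.59 to 0.19, and were Lig3 -0.0040 with quantile scaling. The replicate numbers are shared labels only: deviations of same-numbered libraries correlated at -0.071 to 0.054, and with the replicate block 0 members were called in each comparison. The causes of these shifts were not tested. With 2 libraries per group and SEs of 0.18 to 0.28 for the members on log2(FPKM + 1), changes well under 2-fold could not be told from replicate spread. Nor did a change nearer 2-fold pass in the reported fit: Polb in shCSB/shNDN was at 56.2% of shControl (limma adjusted p = 0.250). On the scale of reads the SEs were larger and reached 0.42 for Neil2.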

Other observations

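Among other poly(ADP-ribose) genes, Parp3, another PARP of the DNA damage response, differed widely within shCSB/shNDN. Parp3, Parg, Hpf1 and Poll are named here after their values were seen. It had 4.53 FPKM in replicate 1 and 0.711 FPKM in replicate 2 of shCSB/shNDN and 1.39 and 1.84 FPKM in shCSB, against 1.11 and 1.38 FPKM in shControl. Nudt1 was high in the other library of that pair, at 9.80 FPKM in replicate 2 and 4.06 FPKM in replicate 1. The microglia markers, at 1983 FPKM in replicate 1 and 564 FPKM in replicate 2, also differed within the pair, and their part in these values was not tested. Parg, which degrades poly(ADP-ribose), had 3.81 and 3.24 FPKM in shCSB/shNDN and 3.47 and 4.47 FPKM in shCSB, against 3.91 and 3.01 FPKM in shControl. Hpf1, the cofactor that directs PARP1 and PARP2 to serine, had 9.41 and 12.1 FPKM in shCSB/shNDN and 11.2 and 10.1 FPKM in shCSB, against 10.8 and 9.98 FPKM in shControl.

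The members of shCSB/shNDN spread about as far between replicates as other genes did. The median gap between replicates, on log2(FPKM + 1), was 0.34 for the members and 0.34 for all genes tested in shCSB/shNDN, 0.17 and 0.18 in shCSB, and 0.11 and 0.14 in shControl. Poll, a polymerase that can fill gaps in place of polymerase beta, had 6.05 and 9.73 FPKM in shCSB/shNDN and 7.96 and 9.36 FPKM in shCSB, against 7.37 and 9.74 FPKM in shControl, with overlap between all groups.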
